A study of Mus musculus with 24 samples.

Results

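The transforming growth factor beta (TGF-beta) genes of the neonatal mouse lung were examined in animals that lacked *Vangl2* or *Ror2*, both planar cell polarity genes, in cells with a history of *Sox9* expression. The set holds 9 of the 23420 genes in the tables, chosen by symbol as 3 ligands (*Tgfb1*, *Tgfb2*, *Tgfb3*), 3 receptors (*Tgfbr1*, *Tgfbr2*, *Tgfbr3*) and 3 genes that respond to the pathway (*Tgfbi*, *Ctgf*, *Smad7*). RNA from the left lung lobe was sequenced in 24 animals, 3 in each of 8 groups. *Vangl2* f/f; *Sox9*Cre/+ mutants and *Ror2* f/f; *Sox9*Cre/+ mutants were each taken at postnatal day 2 (P2) and postnatal day 5 (P5), and each of these 4 groups had 3 control lungs of its own, given as wild type in the labels. The mutants are referred to below as *Vangl2* mutants and *Ror2* mutants. Cre made from the *Sox9* locus acts in the distal epithelium of the lung and also in other *Sox9*-expressing tissues of the body, but whole lobes went into each library, and every level is a sum over epithelial, mesenchymal, vascular and blood cells. For the *Vangl2* mutants at P5 and the *Ror2* mutants at P2 the labelled genotype names the other gene, and the sample titles were followed. Nothing in the sources used here gives litters, so p-values measure the spread between these lungs.

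TGF-beta ligands are secreted in a latent form, held in the extracellular matrix by latent TGF-beta binding proteins and released by integrins and proteases. The active ligand brings together a type II receptor (TGFBR2) and a type I receptor (TGFBR1), helped by the co-receptor betaglycan (TGFBR3), and the type I receptor phosphorylates SMAD2 and SMAD3, which enter the nucleus with SMAD4. In the developing lung the pathway is known for its effects on branching, on matrix deposition and on the myofibroblasts that line the forming alveolar septa, and both too little and too much of it disturb alveolar formation.

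Values are the deposited normalized counts, in which each lung's reads per gene were scaled by one size factor. The size factors were set separately in each table of 6 lungs, so levels were compared within a table only. Reads on genes numbered 16178031 to 21546673 in the lungs whose reads could be recovered from the values, apart from control replicate 1 of the P5 *Ror2* table, which held 13823693 and no reads on chromosomes 6 to 9 and X. That lung was set to missing for genes on chromosomes 5 to 9 and X, so *Tgfb1*, *Tgfbr2* and *Tgfbr3* had 2 control lungs there. *Vangl2* itself was below every control lung in every *Vangl2* mutant lung at both ages, with log2 fold changes of -0.39 at P2 (adjusted p = 0.241 in limma, standard error 0.176) and -1.003 at P5 (adjusted p = 0.0604, standard error 0.18). *Ror2* did not separate the *Ror2* mutants from their controls at either age (log2 fold change -0.38, standard error 0.157, limma adjusted p = 0.25 at P2, and -0.16, standard error 0.2, adjusted p = 0.691 at P5). Sex was not balanced within the groups, as read from *Xist*, and it differed between mutants and controls in all but the P2 *Ror2* comparison. In P5 *Vangl2* lungs *Xist* was 19970 to 31660 in controls, but 19.25 in mutant replicate 1. In P5 *Ror2* lungs it was 5.222 to 129.8 in mutants, but 11860 in control replicate 2. The part of sex in the changes was not tested. All 8 alveolar type II cell markers, among them the surfactant gene *Sftpc* of the lung, were detected in every table.

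Of the 9 genes, *Tgfb1* lies on chromosome 7 (25687002 to 25705077), *Tgfb2* on chromosome 1 (186622787 to 186709697), *Tgfb3* on chromosome 12 (86056743 to 86079041), *Tgfbr1* on chromosome 4 (47353222 to 47414926), *Tgfbr2* on chromosome 9 (116087695 to 116175363) and *Tgfbr3* on chromosome 5 (107106567 to 107289629). *Tgfbi* lies on chromosome 13 (56609586 to 56639359), *Ctgf*, which RefSeq lists as *Ccn2*, on chromosome 10 (24595442 to 24598683), and *Smad7* on chromosome 18 (75367365 to 75395935). All positions are those of RefSeq genes on GRCm38.p6. Exons of *Tgfb2*, *Tgfb3* and *Ctgf* overlap annotated genes on the opposite strand, and *Tgfbr3* overlaps one on its own strand. None of these overlapping genes has a row in the tables, and whether the reads were counted by strand is not given in the sources used here.

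Per kilobase of exon, the order of the 9 genes in control lungs was much the same in the 4 tables. *Tgfbi*, a secreted matrix protein that TGF-beta induces, was the highest, with 4143 ± 606 normalized counts per kilobase (SD, n = 3) in the P2 *Vangl2* controls. *Ctgf*, a matricellular growth factor, followed at 1735 ± 155 and *Tgfbr2* at 1148 ± 23.4. *Tgfb2*, *Tgfb3* and *Tgfb1* lay between 540.8 and 656.8 in the same lungs, with 656.8 ± 59.7, 544.4 ± 17.5 and 540.8 ± 47.4, and the last 2 differed by less than their spread. *Tgfbr3* (379.2 ± 25.3) and *Smad7* (364.5 ± 22.3) did not differ beyond their spread either, and *Tgfbr1* was the lowest at 264.5 ± 18.1. The exceptions to this order in other tables were *Tgfb3*, which stood above *Tgfb2* in the P5 *Vangl2* controls, and *Smad7*, which stood above *Tgfbr3* in the P2 *Ror2* controls. In the P2 *Ror2* controls *Ctgf* (2463 to 3342 per kilobase) overlapped with *Tgfbi* (3153 to 3690.0), so the first place is not clear there.

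RefSeq promoter windows of 250 bases before and 50 after a start site were listed for 5 of the 9 genes, in 6 windows. Those of *Tgfb2* and *Tgfbi* are shown, since these are the ligand and the responding gene whose values went with those of *Tgfb3* across the lungs (r = 0.799 and 0.655). The *Tgfb2* window is chr1:186705940-186706239 on the minus strand, within the span of the gene, and the *Tgfbi* window is chr13:56609336-56609635 on the plus strand, both of build GRCm38.p6. Capitals mark CAGAC, the core of the box bound by SMAD3 and SMAD4 (GTCTG where it is on the other strand), and TATAAA, the TATA box.
*Tgfb2*: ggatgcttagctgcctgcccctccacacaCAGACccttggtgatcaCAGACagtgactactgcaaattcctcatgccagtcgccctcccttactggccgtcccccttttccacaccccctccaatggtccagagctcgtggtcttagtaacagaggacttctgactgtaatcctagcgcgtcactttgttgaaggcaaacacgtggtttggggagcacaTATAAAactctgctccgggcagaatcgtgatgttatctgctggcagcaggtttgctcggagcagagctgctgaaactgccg
*Tgfbi*: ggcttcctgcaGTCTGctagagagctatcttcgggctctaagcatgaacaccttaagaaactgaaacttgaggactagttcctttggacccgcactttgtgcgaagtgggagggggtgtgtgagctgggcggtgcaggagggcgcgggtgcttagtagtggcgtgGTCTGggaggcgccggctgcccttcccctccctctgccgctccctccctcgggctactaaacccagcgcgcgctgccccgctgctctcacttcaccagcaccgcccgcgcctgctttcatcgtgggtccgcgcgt
The *Tgfb2* window holds CAGAC starting 221 and 204 bases before the start site, and TATAAA 31 bases before it. The *Tgfbi* window holds CAGAC on the other strand, in matches that begin 239 and 85 bases before the start. CAGAC was also found in the *Tgfbr2* window and in 1 of the *Tgfbr1* windows, and not in that of *Tgfb1*. Of 32851 mouse promoter windows of this length, 49.6% hold CAGAC on either strand and 13.6% hold TATAAA, so these matches are common and are given as a description.

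Across the 4 comparisons of mutant with control lungs, the ligand *Tgfb3* had a lower mean in mutants each time and the co-receptor *Tgfbr3* a higher mean in 3 of them. No gene of the set passed the main test, which did not pair lungs, in any comparison. The test was limma on log2(normalized count + 1), with p-values adjusted by the Benjamini-Hochberg method across every tested gene and a threshold of 0.05, and each log2 fold change is the mutant minus the control mean on that scale. In the P2 *Vangl2* comparison 0 of 9 genes passed, against 3.59% of all 17448 genes tested, and 4 of 9 had an unadjusted p under 0.05, as did 22.5% of all genes. At P5 in *Vangl2* mutants 0 of 9 passed, against 0.563% of 17410 genes, with 2 of 9 under 0.05 unadjusted (18.8% of all genes). In the P2 *Ror2* comparison 0 of 9 passed and 0% of 17541 genes did, with 4 of 9 under 0.05 unadjusted (19.3% of all genes). In the P5 *Ror2* comparison 0 of 9 passed, against 0.180% of 17176 genes, with 1 of 9 under 0.05 unadjusted (18.5% of all genes). On recovered whole reads, which could be had for both P2 tables, edgeR called 0 of the 9 genes in each (3.67% of all genes in *Vangl2* and 0% in *Ror2* mutants). DESeq2 called 3 at P2 in *Vangl2* mutants (*Tgfb3*, *Tgfbr2* and *Tgfbr3*, with adjusted p = 0.0151 for *Tgfb3* and 0.0363 for *Tgfbr2*), where it called 11.5% of all genes, and 0 at P2 in *Ror2* mutants (4.58% of all genes). At P5 in *Vangl2* mutants, where same-numbered control and mutant lungs deviated together, a fit with the replicate number as a block called *Tgfb3* (adjusted p = 0.0307) and 8.95% of all genes, 1558 against 98 without the block.

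Whether the 2 groups of lungs overlapped was read gene by gene. At P2 in *Vangl2* mutants, all mutant lungs lay above all controls for 3 of the 9 genes, the receptors *Tgfbr1*, *Tgfbr2* and *Tgfbr3* (14.6% of all genes tested did so), and below for 1, *Tgfb3* (14.9% of all genes). At P5 in *Vangl2* mutants, 0 of 9 lay above (13.2% of all genes) and 3 lay below (12.5% of all genes), which were *Tgfb3*, *Tgfbi* and *Smad7*. At P2 in *Ror2* mutants, 2 lay above, *Tgfbr1* and *Tgfbr3* (13.4% of all genes), and 1 below, *Tgfb2* (12.2% of all genes). At P5 in *Ror2* mutants, 1 lay above, *Tgfbr3* (15.6% of all genes, with 2 control lungs), and 1 below, *Tgfb3* (14.4% of all genes). The median log2 fold change of the 9 genes was 0.143, -0.139, 0.12 and -0.0979 in these comparisons, in that order, while the median over all genes tested ran from -0.00588 to 0.00357.

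**Figure D1:**
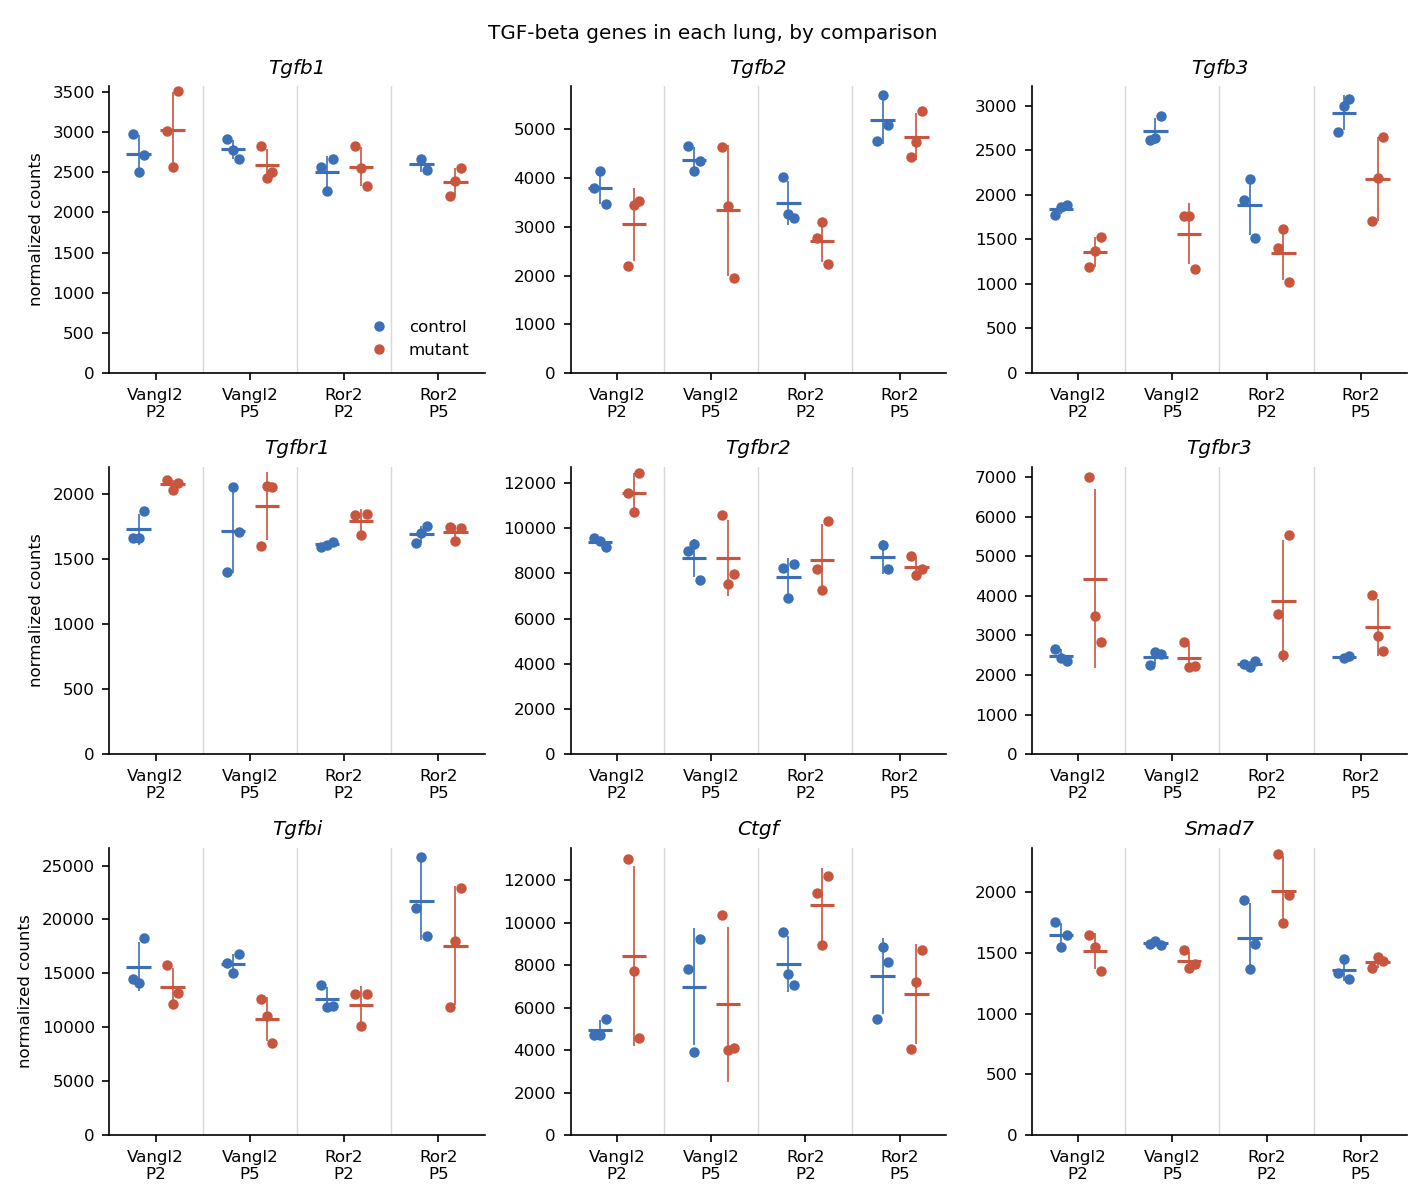
Normalized counts (linear vertical axes from 0) of the 9 TGF-beta genes in each lung, by comparison, with controls in blue and mutants in red. Points are lungs, horizontal bars are group means and vertical lines are ± 1 SD, and the mutant means of *Tgfb3* lie below the control means in all 4 comparisons.

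Among the ligands, *Tgfb3*, which mesenchymal and other cells of the lung make, stood apart from control levels the most. At P2 the *Vangl2* controls held 1776, 1859.8 and 1889.7 normalized counts of *Tgfb3* and the mutants 1186, 1365 and 1525. The groups did not overlap, with a change of -26.6% (log2 fold change -0.45, standard error 0.112, limma adjusted p = 0.0716). At P5 the *Vangl2* controls held 2617, 2640.2 and 2884 and the mutants 1761, 1766 and 1165. The gap was the largest of the 4, at -43.3% (log2 fold change -0.82, standard error 0.181, limma adjusted p = 0.09). Both *Vangl2* comparisons gave p = 0.1 for *Tgfb3* by a two-sided exact permutation test over lungs, the smallest that 3 lungs against 3 allow.

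In *Ror2* controls at P2, *Tgfb3* measured 1946, 2179 and 1517 normalized counts, and in the mutants 1408, 1611 and 1016. Mutant replicate 2 lay above control replicate 3, so the groups overlapped (log2 fold change -0.49, standard error 0.196, limma adjusted p = 0.243, and -0.3046 without mutant replicate 3). Each mutant lung lay below the control lung of its own number, but deviations of same-numbered lungs correlated at only 0.0346, 0.206 and 0.119 here. In limma, blocking on the replicate numbers left *Tgfb3* short of the threshold (unadjusted p = 0.000523, adjusted p = 0.0603). The labels do not say whether lungs of one number are pairs in this table. At P5 the *Ror2* controls held 2702, 2990.2 and 3071 and the mutants 1708, 2183 and 2644. The groups were again apart (log2 fold change -0.44, standard error 0.147, limma adjusted p = 0.187), though mutant replicate 3 lay only just below the lowest control. Without that lung the log2 fold change was -0.5948 (adjusted p = 0.0387), and without mutant replicate 1, the lowest, it was -0.2798 (adjusted p = 0.221). Leaving out each lung in turn kept the log2 fold change of *Tgfb3* below 0 in all 4 comparisons.

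Some matrix fibroblast markers went with *Tgfb3* and others did not. The list holds 8 markers (*Tcf21*, *Col13a1*, *Fgf10*, *Wnt2*, *Pdgfra*, *Col1a1*, *Dpt* and *Mfap5*), none of them at 0 in all lungs of a table. Their log2 fold changes were below 0 for 5 of 8 at P2 and 6 of 8 at P5 in both mutants. *Col1a1*, the most abundant and itself a TGF-beta target, and *Dpt*, a matrix protein gene, were below 0 in all 4 comparisons (-0.643, -0.966, -0.611 and -0.426 for *Col1a1* and -1.07, -0.374, -0.983 and -0.466 for *Dpt*, for *Vangl2* P2 and P5 and then *Ror2* P2 and P5). *Col13a1* was above 0 in all 4 (0.222, 0.184, 0.304 and 0.101), and *Tcf21*, a transcription factor of lung fibroblasts, in all but P5 *Ror2* mutants. *Pdgfra* was above 0 at P2 (0.132 and 0.266) and below 0 at P5 (-0.88 and -0.579), and the P2 *Vangl2* mutant with the least *Tgfb3* held the most *Pdgfra*.

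The summed level of the 8 markers ran from 51031 to 56831 normalized counts in the P2 *Vangl2* controls and from 39321 to 42596 in the mutants, but without *Col1a1* from 20039 to 23979 and from 19210.0 to 20200.0, which overlap. Leaving out *Col1a1* was chosen after the values were seen. At P5 the full sum ran from 61251 to 69252 in *Vangl2* controls and from 32106 to 48544 in mutants, and without *Col1a1* from 24786 to 27160.0 and from 18913 to 25902. In the P2 *Ror2* comparison the full sums were 47362 to 53858 in controls and 36624 to 44973 in mutants, and without *Col1a1* 23347 to 25646 and 20397 to 24597. At P5, over the 5 markers measured in all 6 *Ror2* lungs, they were 48266 to 55751 and 35989 to 47968, and without *Col1a1* 23712 to 26198 and 18499 to 23689.

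Across the 24 lungs, each value being log2 less its table's mean, *Tgfb3* had a Pearson's r of 0.961 with *Col1a1*, 0.837 with *Wnt2*, 0.808 with *Dpt*, 0.76 with *Fgf10* and 0.738 with *Mfap5*. It was 0.375 with *Pdgfra*, and with *Tcf21* (-0.539) and *Col13a1* (-0.61) it was negative. With the mean of all 8 markers r was 0.933 (Spearman's rho = 0.903), 0.896 without the 2 lungs farthest from the median of the marker mean, and 0.888 without *Col1a1*. Of the cell type lists compared, the matrix fibroblast list had the highest r with *Tgfb3*, but the relation was not particular to this list. With the means of the neutrophil and alveolar type I cell markers *Tgfb3* had r = -0.768 and -0.739. With the mean of 8 myofibroblast and smooth muscle markers *Tgfb3* had r = 0.806 (rho = 0.641), and 0.657 without the 2 farthest lungs. *Tgfb2* and *Tgfbi* had r = 0.82 and 0.726 with that mean. These correlations are descriptions, since the lungs share genotypes and size factors. The part of matrix fibroblasts, myofibroblasts or smooth muscle in the *Tgfb3* values was not tested. In whole lobes fewer cells of a type and less RNA per cell cannot be told apart.

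**Figure D2:**
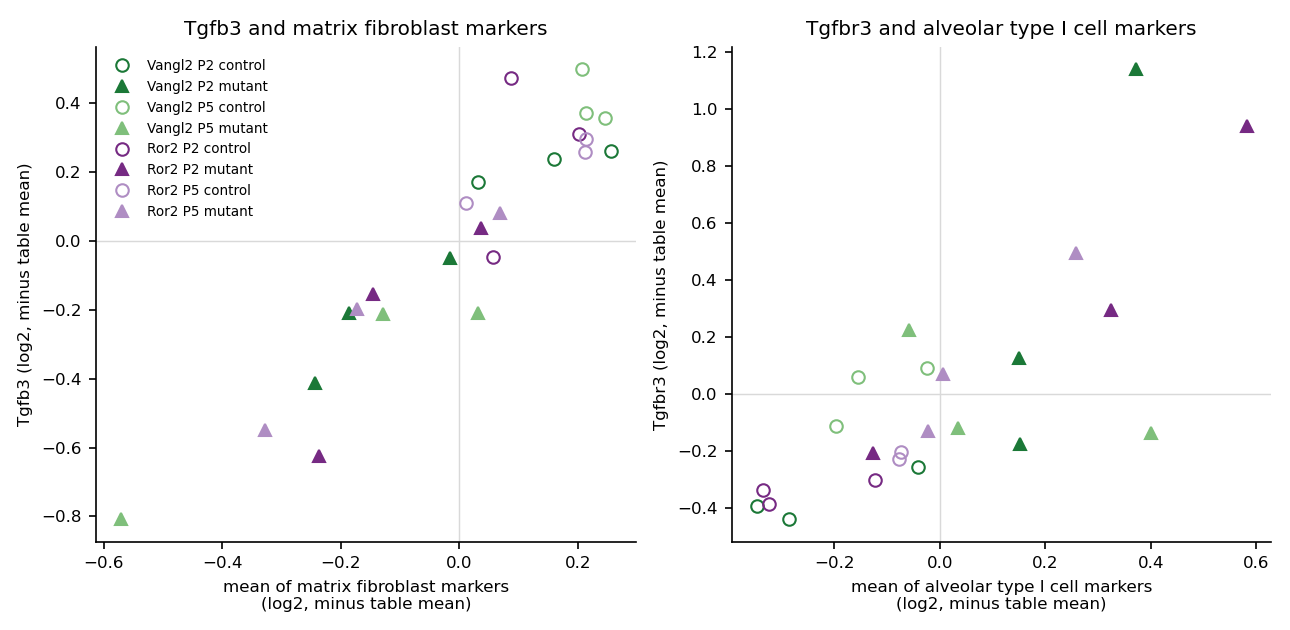
Left, *Tgfb3* against the mean of the matrix fibroblast markers in 24 lungs. Right, *Tgfbr3* against the mean of the alveolar type I cell markers in 23 lungs. Both axes are log2(normalized count + 1) less the mean of the lung's table, open circles are controls and filled triangles mutants, and the lungs of the left panel lie along a rising band (r = 0.933), though 2 of the 8 markers taken singly (*Tcf21* and *Col13a1*) went the other way.

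*Tgfb2*, a ligand made by both epithelium and mesenchyme in the developing lung, had negative log2 fold changes in all 4 comparisons, with wider spread among the mutants. At P2 the *Vangl2* controls held 3800.1, 4151 and 3459 normalized counts and the mutants 2188, 3442 and 3520.4. Mutant replicate 1 was far below the rest, and the groups overlapped (log2 fold change -0.35, standard error 0.185, limma adjusted p = 0.311, and -0.1238 without that lung). At P5 the *Vangl2* controls held 4649, 4144 and 4344 and the mutants 4637, 3433 and 1949.8, so that one mutant matched the controls while another held the least in that table (log2 fold change -0.48, standard error 0.284, limma adjusted p = 0.41, and -0.1327 without mutant replicate 3).

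In the P2 *Ror2* comparison the 3 mutants held 2779, 3102 and 2243 normalized counts of *Tgfb2*, all below the controls at 4016, 3270.1 and 3178 (log2 fold change -0.37, standard error 0.143, limma adjusted p = 0.235, and -0.2403 without mutant replicate 3). At P5 the *Ror2* groups overlapped widely, with 4762, 5700.3 and 5088 in controls and 4425, 4743 and 5367 in mutants (log2 fold change -0.10, standard error 0.098, limma adjusted p = 0.608). *Tgfb2* and *Tgfb3* went together from lung to lung, with r = 0.799 and rho = 0.703 over 24 lungs, 0.658 without the 2 farthest lungs, and r between 0.789 and 0.874 within tables.

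*Tgfb1*, the ligand most widely expressed in immune, vascular and stromal cells, showed no separation. Its log2 fold changes were 0.14 (standard error 0.132) at P2 and -0.11 (standard error 0.124) at P5 in *Vangl2* mutants, and 0.04 (standard error 0.1) and -0.13 (standard error 0.0868) in *Ror2* mutants, with limma adjusted p between 0.454 and 0.845. All 23 lungs measured lay between 2198 and 3507 normalized counts. The largest of the 4 differences was the 10.4% in P2 *Vangl2* mutants.

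Among the receptors, the 3 mutant *Vangl2* lungs at P2 stood above their controls for every one. *Tgfbr1*, the type I receptor kinase, measured 1657, 1663 and 1865 normalized counts in those controls and 2103, 2032 and 2080.0 in the mutants (log2 fold change 0.26, standard error 0.0892, limma adjusted p = 0.143). *Tgfbr2*, the type II receptor that binds the ligand, measured 9566, 9445 and 9189.9 in controls and 11553, 10709 and 12439 in mutants (log2 fold change 0.30, standard error 0.098, limma adjusted p = 0.135). These differences of 20% and 22.8% were larger than the spread within either group and did not pass.

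At the other age and in the other mutant the 2 signalling receptors overlapped with control levels, except *Tgfbr1* in P2 *Ror2* mutants. At P5 *Tgfbr1* ran from 1396 to 2052 normalized counts in *Vangl2* controls and from 1602 to 2060.5 in mutants (log2 fold change 0.16, standard error 0.179, limma adjusted p = 0.687). In P2 *Ror2* controls it ran from 1590.3 to 1632, below the mutants at 1681 to 1841 (log2 fold change 0.15, standard error 0.0705, limma adjusted p = 0.29), and at P5 the *Ror2* groups overlapped (log2 fold change 0.01, standard error 0.0641). *Tgfbr2* overlapped in all 3 of these comparisons, with log2 fold changes of -0.01 (standard error 0.184) at P5 in *Vangl2* mutants, 0.12 (standard error 0.146) at P2 in *Ror2* mutants and -0.07 (standard error 0.0935) at P5 in *Ror2* mutants. The first of these turned to a value just above 0 when the lungs were rescaled by TMM factors.

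*Tgfbr3*, betaglycan, which presents ligand, TGF-beta2 above all, to the signalling receptors, varied the most of the 3 among mutants in all but the P5 *Vangl2* comparison. The P2 *Vangl2* controls held 2668, 2428 and 2350.4 normalized counts and the mutants 7016, 3482 and 2825. Mutant replicate 1 was well above the other lungs, and all 3 mutants were above all controls (log2 fold change 0.73, standard error 0.296, limma adjusted p = 0.201). Without mutant replicate 1 the log2 fold change was 0.34 (adjusted p = 0.17). Without mutant replicate 3 it was 0.9957 with an adjusted p of 0.0477, and 2333 genes passed in all.

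The same order held in *Ror2* mutants at P2, where *Tgfbr3* measured 2283, 2210.4 and 2344 in controls and 3543, 2501 and 5539 in mutants (log2 fold change 0.68, standard error 0.255, limma adjusted p = 0.229). Without mutant replicate 2, the lowest of these, the log2 fold change was 0.9589 (adjusted p = 0.0429), and without mutant replicate 3, the highest, 0.3856 (adjusted p = 0.372). At P5 the 2 *Ror2* controls measured 2429.9 and 2474 and the mutants 4012, 2993 and 2600.3 (log2 fold change 0.36, standard error 0.171, limma adjusted p = 0.311). Without mutant replicate 1 the log2 fold change was 0.1863. The replicate block must give the same value, since mutant replicate 1 has no same-numbered control for this gene, so it is not a second check. In P5 *Vangl2* mutants, at 2838, 2210.5 and 2233, *Tgfbr3* overlapped with the controls at 2246, 2584 and 2528 (log2 fold change -0.02, standard error 0.145, limma adjusted p = 0.954).

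Beside *Tgfbr3* stand the alveolar type I cell markers, the genes of the thin cells that cover most of the gas exchange surface. Their log2 fold changes were above 0 for 7 of 8 at P2 and 8 of 8 at P5 in *Vangl2* mutants, and for 8 of 8 at P2 and 7 of 8 at P5 in *Ror2* mutants. The 8 markers (*Ager*, *Hopx*, *Pdpn*, *Aqp5*, *Rtkn2*, *Emp2*, *Clic5* and *Akap5*) summed to between 86165 and 104870.0 normalized counts in P2 *Vangl2* controls and between 117340.0 and 144860.0 in mutants, and to 78945 to 92290.0 and 93508 to 148900.0 in the P2 *Ror2* comparison. At P5 they summed to 76357 to 81412 in *Vangl2* controls and 78853 to 109470.0 in mutants, and over 7 of them to 78058 to 80945 and 84094 to 96296 in the *Ror2* comparison. None was at 0 in all lungs of a table. Over 23 lungs r between *Tgfbr3* and the mean of these markers was 0.777 (rho = 0.745), and 0.804 without the 2 farthest lungs, and for single markers it ran from 0.296 (*Akap5*) to 0.85 (*Emp2*). Of the cell type lists compared, this one had the highest r with *Tgfbr3*, and with the erythroid markers r was -0.672. *Tgfbr1* also went with the type I cell markers (r = 0.66, rho = 0.765, over 24 lungs). For *Tgfbr3* the relation did not hold in every table, since r within the P5 *Vangl2* table was -0.386. The part of type I cells in the *Tgfbr3* values was not tested.

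**Figure D3:**
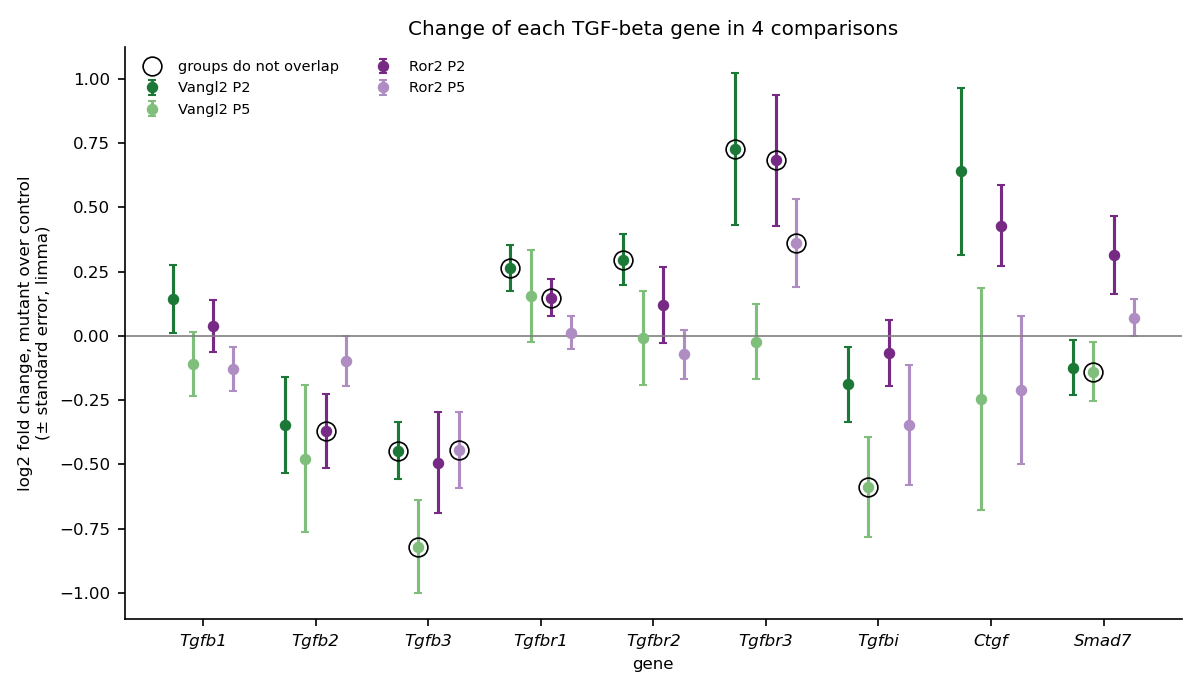
Log2 fold change, mutant over control, of the 9 genes in 4 comparisons (limma on log2(normalized count + 1), bars ± 1 standard error, n = 3 lungs per group, or 2 controls for *Tgfb1*, *Tgfbr2* and *Tgfbr3* at P5 in *Ror2* mutants). Ringed points are comparisons in which the groups did not overlap, among them 3 of the 4 for *Tgfb3*, all below 0, and 3 of the 4 for *Tgfbr3*, all above 0.

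Among the responding genes, *Tgfbi* had negative log2 fold changes in all 4 comparisons, and was lowest against its controls in P5 *Vangl2* mutants. There the controls held 15980.2, 14995 and 16761 normalized counts and the mutants 12623, 11002 and 8555. No lungs overlapped, and the change was -33.4% (log2 fold change -0.59, standard error 0.194, limma adjusted p = 0.172, or 0.0694 with the replicate block). At P2 the *Vangl2* groups overlapped (14137 to 18256 in controls, 12198 to 15731 in mutants, log2 fold change -0.19, standard error 0.147). The *Ror2* groups overlapped at P2 (11890.3 to 13915 and 10141 to 13092, log2 fold change -0.07, standard error 0.128) and at P5 (18463 to 25769 and 11850.5 to 22878, log2 fold change -0.35, standard error 0.234, and -0.08673 without mutant replicate 1). *Tgfbi* and *Tgfb3* had r = 0.655 (rho = 0.579) over 24 lungs, 0.427 without the 2 farthest lungs, and -0.144 within the P2 *Ror2* table.

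*Ctgf*, connective tissue growth factor, had the widest spread between lungs of one group. The P2 *Vangl2* controls held 4695, 4717 and 5476 normalized counts, and the mutants 12990.3, 7744 and 4562. Mutant replicate 1, the lung with the most *Tgfbr3*, held the most *Ctgf*, while mutant replicate 3 lay below all controls (log2 fold change 0.64, standard error 0.325, limma adjusted p = 0.289, or 0.0245 without mutant replicate 3). Without mutant replicate 1 the log2 fold change was 0.264 (adjusted p = 0.557). In the P5 *Vangl2* table both groups spanned more than a doubling, with 3916 to 9249 in controls and 3997 to 10364 in mutants (log2 fold change -0.25, standard error 0.433). In *Ror2* mutants the log2 fold change was 0.43 (standard error 0.158, limma adjusted p = 0.226) at P2, where controls ran from 7047 to 9563 and mutants from 8934 to 12201, and -0.21 (standard error 0.288) at P5, where leaving out mutant replicate 1 turned it above 0.

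*Smad7*, the inhibitory SMAD that the pathway induces as its own brake, lay near control levels in most comparisons. In P5 *Vangl2* mutants it measured 1519, 1376 and 1408 normalized counts, all below controls at 1574, 1594 and 1566, a change of -9.17% (log2 fold change -0.14, standard error 0.114, limma adjusted p = 0.561). At P2 its log2 fold change was -0.12 (standard error 0.107) in *Vangl2* mutants. In *Ror2* mutants it was 0.31 (standard error 0.152, limma adjusted p = 0.297) at P2 and 0.07 (standard error 0.071) at P5, with overlap of the groups at both ages. Each P2 *Ror2* mutant lung lay above the control lung of its own number. In limma with the replicate block *Smad7* did not pass there either (unadjusted p = 0.00364, adjusted p = 0.0779).

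Whether a gene responded differently by age or by mutant was tested as a difference of the 2 log2 fold changes, with limma over the 12 lungs of 2 tables. No gene of the set passed in any of the 4 tests. For P5 minus P2 in *Vangl2* mutants 0 of 9 genes passed and 0% of 17068 genes did (1442 genes and 0 of the 9 had an unadjusted p under 0.05), and for P5 minus P2 in *Ror2* mutants 0 of 9 and 0% of 16990 genes (1613 and 0 of the 9). For *Vangl2* minus *Ror2* mutants it was 0 of 9 and 0% of 17137 genes at P2 (788 and 1 of the 9), and 0 of 9 and 0.0118% of 16886 genes at P5 (798 and 0 of the 9). The 1 gene with an unadjusted p under 0.05 was *Smad7*, for which *Vangl2* minus *Ror2* at P2 was -0.44 (standard error 0.193, unadjusted p = 0.0436, limma adjusted p = 0.946). *Tgfbr3* came next, at -0.75 for P5 minus P2 in *Vangl2* mutants (standard error 0.361, unadjusted p = 0.0596, limma adjusted p = 0.593). The *Tgfb3* differences were -0.37 (standard error 0.22) for P5 minus P2 in *Vangl2* mutants, 0.05 (standard error 0.271) in *Ror2* mutants, 0.05 (standard error 0.241) for *Vangl2* minus *Ror2* at P2 and -0.38 (standard error 0.25) at P5, each with limma adjusted p of at least 0.635.

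Further genes of the pathway were read in 4 lists. In P2 *Vangl2* mutants 7 of their 56 measured genes passed the test, against 3.59% of all genes. These calls depend on single lungs, as do those over all genes. Without control replicate 1, 2 or 3 or mutant replicate 2, 0 of the 56 passed (0.71%, 0.00578%, 0.00579% and 0.191% of all genes). Without mutant replicate 1, 6 passed (3.13% of all genes), and without mutant replicate 3, 16 (13.6%). With edgeR 7 passed (3.67% of all genes), 6 of them among the first 7. With DESeq2 16 passed (11.5%), all of the first 7 among them. With all 24 lungs in one fit 5 passed (6.45%), 1 of them among the first 7. In storage and activation, 2 of 15 passed. *Lrrc32*, which anchors latent TGF-beta at the cell surface, rose from 643 ± 116 to 1061 ± 122 normalized counts (SD, n = 3, log2 fold change 0.73, standard error 0.158, limma adjusted p = 0.0495). It alone of the 7 was lost with a pseudocount of 0.5 or 5, with no filter on low values, with TMM rescaling and with edgeR. With DESeq2 and with the replicate block *Lrrc32* still passed. *Fbn2*, a microfibril protein of developing tissue, fell from 2505 ± 417 to 1380.3 ± 276 (log2 fold change -0.87, standard error 0.178, limma adjusted p = 0.0429). Of 13 inhibitors and feedback genes 3 passed. *Cd109*, a co-receptor that restrains TGF-beta signalling, fell from 489.5 ± 20.7 to 253 ± 8.38 (log2 fold change -0.95, standard error 0.119, limma adjusted p = 0.0258), and the decoy receptor *Bambi* fell from 948 ± 16.2 to 661 ± 62 (log2 fold change -0.52, adjusted p = 0.0413). The SMAD co-repressor *Tgif1* rose from 628 ± 42.5 to 975 ± 67.7 (log2 fold change 0.63, limma adjusted p = 0.0326).

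Of 20 target genes 2 passed in P2 *Vangl2* mutants, both lower. *Col1a1*, which encodes a chain of type I collagen, fell from 32819 ± 2420 to 21044 ± 2030 (log2 fold change -0.64, standard error 0.126, limma adjusted p = 0.0394), and *Snai2*, a transcription factor of mesenchymal cells, fell from 2095 ± 175 to 1271 ± 224 (log2 fold change -0.73, standard error 0.146, limma adjusted p = 0.0397). Of the 8 co-receptors and SMAD transducers 0 passed, with log2 fold changes between -0.139 and 0.236. The targets divided in this comparison, with 10 above 0 and 10 below, and the ends of the range were *Cdkn1a*, a cell cycle inhibitor, at 1.24 (standard error 0.433, adjusted p = 0.151) and *Acta2*, smooth muscle actin, at -0.76 (standard error 0.253, adjusted p = 0.136).

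Without a block, 0 of the 56 genes passed in limma in each of the other 3 comparisons. An unadjusted p under 0.05 was found for 10 in P5 *Vangl2* (18.8% of all genes), 19 in P2 *Ror2* (19.3%) and 22 in P5 *Ror2* mutants (18.5%). With the replicate block, under which 8.95% of all genes passed in the P5 *Vangl2* comparison, 5 of the 56 did there, all lower in mutants (*Cd109*, *Eng*, *Fbn2*, *Snai2* and *Zfyve9*, named after their values were seen). In the same comparison 11 passed with all 24 lungs in one fit (11.1% of all genes). DESeq2 called 5 in P2 *Ror2* mutants (4.58% of all genes), and limma 4 there without mutant replicate 2 (4.93%). In P5 *Ror2* mutants limma called 3 without mutant replicate 3 (5.29%). The median of the 20 targets was -0.492 in P5 *Vangl2* mutants, -0.0596 in P2 *Ror2* mutants and -0.36 in P5 *Ror2* mutants, and -0.0603 in P2 *Vangl2* mutants. In P5 *Ror2* mutants 18 of the 20 targets were below 0 and in 13 all mutant lungs lay below all controls (14.4% of all genes did so), led by *Junb* at -0.59 (standard error 0.169, limma adjusted p = 0.17). In P5 *Vangl2* mutants 16 of 20 were below 0 and 7 did not overlap (12.5% of all genes lay below), with *Snai2* the lowest at -1.02 (standard error 0.362, limma adjusted p = 0.197). *Col1a1*, *Acta2* and *Tagln* of this list are also in the fibroblast or smooth muscle marker lists, and *Col1a1* made up most of the gap in the summed matrix fibroblast markers at P2 in *Vangl2* mutants.

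In the storage list the gene with the most negative log2 fold change was *Fbn2* in each comparison, at -0.87 and -1.21 in P2 and P5 *Vangl2* mutants and -0.72 and -0.69 in P2 and P5 *Ror2* mutants, and in the inhibitor list it was *Cd109*, at -0.95, -1.01, -0.93 and -0.78 in that order. Outside the P2 *Vangl2* comparison their adjusted p lay between 0.147 and 0.235. The largest positive value in the storage list was that of the integrin gene *Itgb6*, which encodes part of an epithelial activator of latent TGF-beta, in P5 *Vangl2* (0.38) and P2 *Ror2* mutants (0.44), and that of *Ltbp1* in P5 *Ror2* mutants (0.25). *Nedd4l*, a ubiquitin ligase that acts on SMADs, was the highest of the inhibitors at P2 in both mutants (0.90 with adjusted p = 0.0581 in *Vangl2* and 0.66 with adjusted p = 0.203 in *Ror2* mutants), and the matrix proteoglycan *Dcn* at P5 (0.79 and 0.54). Of the signal transducers, *Acvrl1*, an endothelial type I receptor, was the highest in *Ror2* mutants at both ages (0.43 and 0.33). *Eng*, its endothelial co-receptor, was the lowest at P5 in both mutants (-0.69 with standard error 0.322 in *Vangl2* and -0.14 with standard error 0.0685 in *Ror2* mutants). Its groups overlapped in *Vangl2* and not in *Ror2* lungs. The summed endothelial markers were 79126 to 85931 in P5 *Vangl2* controls and 45381 to 72154 in mutants. Over 6 markers in P5 *Ror2* lungs they were 48120 to 56689 in controls and 49402 to 51092 in mutants, which overlap. Their part in the *Eng* values was not tested.

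**Figure D4:**
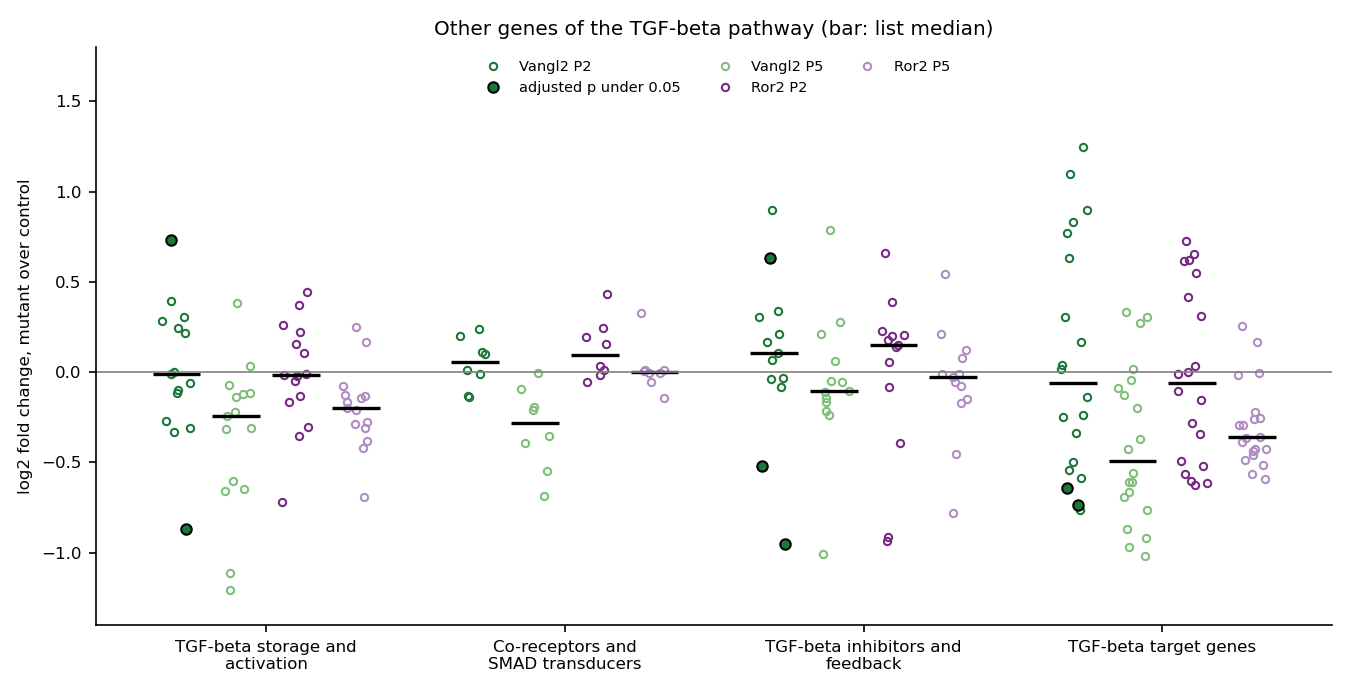
Log2 fold change, mutant over control, of every measured gene in 4 lists of the TGF-beta pathway (15, 8, 13 and 20 genes) in 4 comparisons. Each point is a gene, filled points passed the test (7, all in P2 *Vangl2* mutants), and black bars are list medians, which lie lowest for the target genes at P5 (-0.492 in *Vangl2* and -0.36 in *Ror2* mutants).

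The genes whose pattern over the lungs was most like each member were found among 13188 genes by Pearson's r, each value being log2 less its table's mean, over 23 or 24 lungs. *Tgfb3* was followed most closely by *Antxr1* (r = 0.975), *Pi15* (0.974) and the collagen gene *Col1a2* (0.963), and *Tgfb2* by *Slc25a24* (0.957), *Ddah1* (0.931) and *Arap1* (0.923). *Tgfbr3* was followed by *Ndrg2* (0.957), *Tgm2* (0.931) and *Myrip* (0.93). *Ctgf* went with *Dusp1* (0.913), *Tmem204* (0.891) and *Jun* (0.89), of which *Dusp1* and *Jun* are immediate early genes, and *Tgfbi* with the lung mesenchyme transcription factor *Tbx4* (0.905), *Rerg* (0.879) and *Pdzrn3* (0.844). The nearest genes of *Tgfbr1* were *Crbn* (0.896), *Rsbn1* (0.883) and *Rnf139* (0.882), and of *Tgfbr2* *Pacsin2* (0.851), *Tada2b* (0.849) and *Krt80* (0.839). *Tgfb1* and *Smad7* had no gene as close, with *Rela* (0.811), *Tnfrsf1a* (0.793) and *Cttnbp2nl* (0.767) for the first and *Anapc2* (0.772), *Plekha2* (0.765) and *2610027K06Rik* (0.759) for the second. These are the highest of many correlations and are given as a description.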

How the data were processed

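RNA was prepared by the study from left lung lobes of 24 mice, and the labels name genome build mm10 and DESeq2 in the submitters' processing notes. The aligner and counter are not given in the sources used here. The authors deposited, for each of 4 comparisons, a table of 23420 genes whose signal values are gene read counts scaled by one size factor per lung. Columns of the authors' own comparisons (fold changes and p-values) were not used.

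Groups were taken from sample titles. In R (version 4.3.3), limma (version 3.58.1) was fitted with its lmFit and trended eBayes steps to log2(normalized count + 1) in the 6 lungs of a table, over genes with at least 1 normalized count in at least 3 lungs. The pseudocount understates changes of weakly expressed genes. The fit was tested on simulated data. In the P5 *Ror2* table, control replicate 1 was missing for 8252 genes on chromosomes 5 to 9 and X or not placed on any. Whole reads (within 0.02) were recovered in 21 of 24 lungs, and edgeR (version 4.0.16) and DESeq2 (version 1.42.0) were run on both P2 tables.

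Deviations of same-numbered lungs from their group means correlated at 0.384, 0.34 and 0.241 in the P5 *Vangl2* table. It was read as paired from the data alone, since the labels do not say what a number marks. The main fit of this table did not use the numbers, and the replicate block was run beside it. The members and gene lists were chosen with earlier results of these data known. All 9 members were named in each comparison, with the list genes past the threshold and, in each list, those with the highest and lowest log2 fold change at a mean of at least 50 normalized counts. *Nrros* and 6 cell type markers were not found under those symbols.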

Additional observations from a re-analysis of the deposited data

How the results depend on the processing

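With no member called in any comparison by the main fit, the alternatives bear on single genes and on counts. At P2 in *Vangl2* mutants the number of members called was 3 with DESeq2 and 0 to 3 when each lung was left out in turn, where the 3 (*Tgfb3*, *Tgfbr3* and *Ctgf*) came without mutant replicate 3. At P5 in *Vangl2* mutants it was 1 (*Tgfb3*) with the replicate block and 1 (*Tgfb3*) with all 24 lungs in one fit. Leaving out a lung gave 0 to 1 members in each *Ror2* comparison, *Tgfbr3* at P2 without mutant replicate 2 and *Tgfb3* at P5 without mutant replicate 3. The number of all genes called at P2 in *Vangl2* mutants was 626, and 2001 with DESeq2, 1126 with all 24 lungs in one fit and 1 to 2333 with a lung left out. At P5 in *Vangl2* mutants it was 98, and 1558 with the block, 1932 with 24 lungs and 0 to 54 with a lung left out. At P2 in *Ror2* mutants it was 0, and 803 with DESeq2, 1 with the block, 3 with 24 lungs and 0 to 859 with a lung left out, and at P5 it was 31, and 1 with the block, 103 with 24 lungs, 1 with control replicate 1 as deposited and 0 to 901 with a lung left out. The causes of these differences were not tested.

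The log2 fold change of *Tgfbr2* at P5 in *Vangl2* mutants was 0.004953 with TMM factors. With control replicate 1 as deposited, where these genes are listed at 0, the P5 *Ror2* values became 3.652 for *Tgfb1* and 4.291 for *Tgfbr2*. With a lung left out, signs turned at P2 in *Ror2* mutants for *Tgfb1* (-0.03104 to 0.107), *Tgfbi* (-0.1277 to 0.05657) and *Tgfbr2* (-0.01975 to 0.2345), at P5 in *Ror2* mutants for *Ctgf* (-0.4417 to 0.1098), *Tgfbr1* (-0.01695 to 0.04123) and *Tgfbr2* (-0.1609 to 0.01656), and at P5 in *Vangl2* mutants for *Ctgf* (-0.6976 to 0.002573), *Tgfbr2* (-0.1602 to 0.08807) and *Tgfbr3* (-0.14 to 0.04028). None of the differences between comparisons called a member under any alternative run. The block changed no call of a member outside P5 in *Vangl2* mutants. In the other tables same-numbered lungs correlated at -0.0905 to 0.206, with not every pair above 0.1. Whether lungs of those tables are paired is not given by the labels and was not tested. Count tests were not run on the P5 tables, where reads were not recovered in every lung. For the 3 members with 2 controls in the P5 *Ror2* table, leaving out one control left a lung that was assumed to vary like the others.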
